A study of Mus musculus with 10 samples.

Results

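The cytosolic ribosomal protein genes were taken by name from a bulk RNA-seq table of a mouse acute myeloid leukaemia. Names starting with Rpl or Rps and a digit, or with Rplp, were kept together with Rpsa, while Rps6k kinases and names containing -ps (pseudogenes) were left out. The rule found 81 of 10141 genes, 49 with large-subunit names and 32 with small-subunit names. It also caught Rps19bp1, a protein that binds Rps19 and is not part of the ribosome, and Rpl7l1, whose yeast relative is a ribosome assembly factor. A further 12 annotated names that meet the rule, Rps27 and Rpl29 among them, have no entry here and were not analysed here.

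The leukaemia group was GFP+ bone marrow cells of MLL-AF9/GFP genotype, grown in CD45.1 recipient mice after injection into the tail vein, with 5 libraries. The myeloid group was GFP-negative CD11b+ bone marrow cells of the same kind of leukaemic recipients, also with 5 libraries. Marrow was collected once GFP+ cells made up 2% of those in blood, so both groups came from leukaemic marrow and no library came from healthy mice or from normal immature cells. The protocol has both populations sorted by flow cytometry, whereas the design text has the myeloid cells taken magnetically as CD45.2-negative CD11b+ cells, and the cell type label is the same for all 10 libraries. Separate mice are not stated, so p-values measure only the spread between these libraries, which may be technical. Ages and sexes are not given in the labels.

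Ribosomal proteins join the ribosomal RNAs in the nucleolus to form a large subunit, which makes peptide bonds, and a small subunit, which reads the mRNA. Their mRNAs are abundant, and most start with a C followed by a run of pyrimidines, the terminal oligopyrimidine tract, through which Larp1 and the kinase mTOR control their translation. Several have paralogues that can replace them or have taken up other roles. In the marrow, immature dividing cells make many ribosomes, and terminally differentiated neutrophils make few.

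Start regions are shown for the genes with the highest and lowest differences, Rpl12 and Rps9, for the well-known members Rps6 and Rpl4, and for the paralogues Rpl22l1 and Rpl3l. Each runs 5′ to 3′ on the strand of the gene, from 30 bases before to 30 bases from the annotated start, in RefSeq build GRCm38.p6. Capitals mark the longest run of C and T in that window. Where a gene has several promoter entries, the one with the longest run is shown. The regions are chr2:32961682-32961741 (+ strand) for Rpl12, chr7:3704011-3704070 (+) for Rps9, chr4:86857338-86857397 (- strand) for Rps6, chr9:64173357-64173416 (+) for Rpl4, chr3:28805478-28805537 (+) for Rpl22l1 and chr17:24727796-24727855 (+) for Rpl3l.
Rpl12: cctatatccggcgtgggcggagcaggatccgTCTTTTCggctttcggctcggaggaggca
Rps9: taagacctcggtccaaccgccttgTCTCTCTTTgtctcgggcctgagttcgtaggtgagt
Rps6: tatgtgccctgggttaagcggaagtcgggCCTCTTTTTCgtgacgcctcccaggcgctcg
Rpl4: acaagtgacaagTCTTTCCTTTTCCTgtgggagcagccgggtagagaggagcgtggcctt
Rpl22l1: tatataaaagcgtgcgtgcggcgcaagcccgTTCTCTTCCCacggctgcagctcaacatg
Rpl3l: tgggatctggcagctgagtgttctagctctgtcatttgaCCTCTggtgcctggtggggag

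The longest runs were 7 bases in Rpl12, 9 in Rps9, 10 in Rps6, 14 in Rpl4, 10 in Rpl22l1 and 5 in Rpl3l. In the same order they begin at base 2, -6, -1, -18, 2 and 10 from the annotated start. The Rpl4 run thus lies wholly before that start. RefSeq promoters were matched for 62 of the 81 genes, and a gene was counted where any of its promoters held the feature. A pyrimidine run of at least 8 bases in this window was held by 33 of the 62 (53.2%). The share was 26.0% of the 8016 matched genes of the table and 25.8% of all 27025 genes. The hexamer CGGAAG, the core of the motif of ETS-family factors, was searched on both strands in the 300 bases from 250 before to 50 after the start. It stood in 67.7% of the 62 ribosomal protein genes, 34.5% of the genes in the table and 18.8% of all. CTTTC, which can lie inside a pyrimidine run, was on either strand in 82.3%, against 57.6% for genes in the table and 60.6% of all. TATAAA was in 11.3%, which lies above the 8.9% for genes in the table and below the 15.7% of all. These letters describe the windows and are not binding sites.

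Leukaemia libraries held 24099551 to 30879584 reads over the genes of the table and myeloid libraries 24712749 to 32247804. Values are given as normalised reads, which are recovered reads divided by the size factor of the library. Summed over 7 genes of the fusion programme such as Hoxa9 and Meis1, the level was 23274 to 30715 in leukaemia and 1810 to 3117 in myeloid libraries. Summed over 10 mature neutrophil genes it was 67019 to 71867 in leukaemia and 2809847 to 4461832 in myeloid libraries, so every myeloid library was rich in neutrophil mRNA. Myeloid replicates 2 and 4 stood apart, with 5854 and 5942 normalised reads of dendritic and MHC class II genes against 40092 to 61746 in the other myeloid libraries and 1025 to 2407 in leukaemia. Their neutrophil sums were also the highest, at 4461832 and 3730527 against 2809847 to 3068143 in the other myeloid libraries. Their sums over 4 monocyte genes were lower, at 54282 and 59458 against 85579 to 96486. In these bulk samples, fewer cells of a type and less RNA per cell cannot be told apart, and the part of this mixture in the results below was not tested.

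Ribosomal protein reads were more abundant in leukaemia than in myeloid cells in every library. Their sum was 1257196, 1670189, 1383046, 1535326 and 1464729 normalised reads in the leukaemia libraries, against 678723, 727328, 568401, 568299 and 567447 in the myeloid libraries. The lowest leukaemia library stood well above the highest myeloid one, and the ratio of the means was 2.35. As a share of all reads of the table the sum was 6.51% ± 0.647 in leukaemia and 1.78% ± 0.219 in myeloid libraries (SD, n = 5 each). Myeloid replicates 2 and 4, which stood apart in the MHC class II genes, had the highest and the second lowest myeloid sum, and the ratio without both was 2.42.

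**Figure D1:**
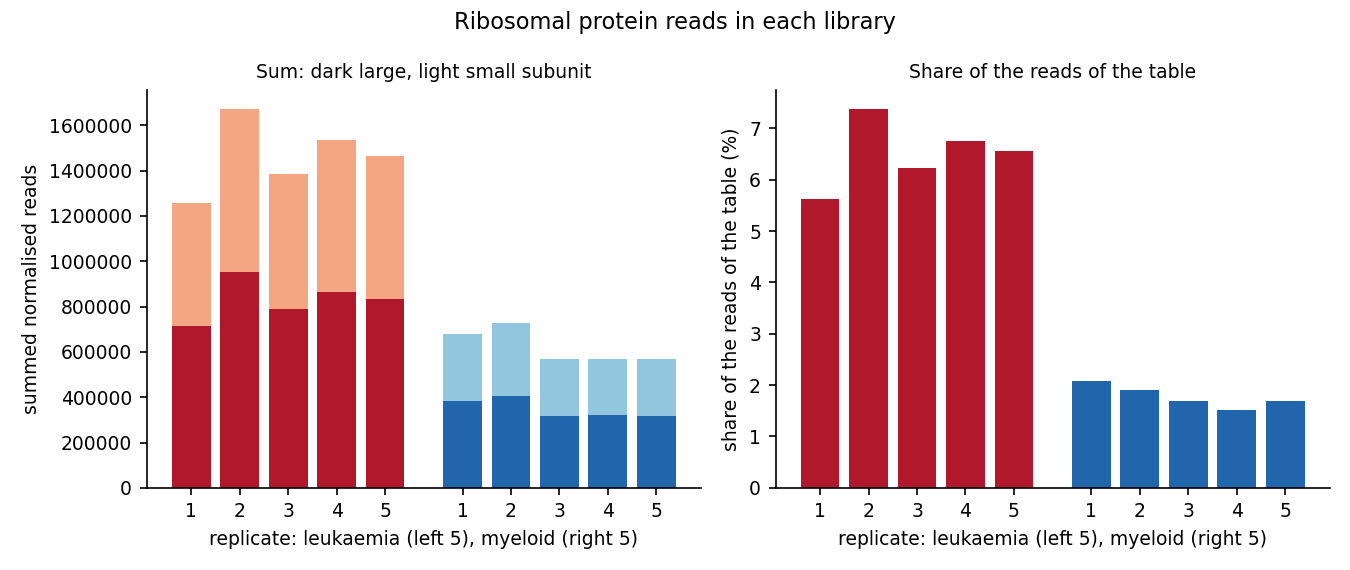
Summed normalised reads of the ribosomal protein genes (left, dark large and light small subunit) and their share of the reads of the table in percent (right), one bar per library, leukaemia red and myeloid blue. All 5 leukaemia bars, from 1257196 normalised reads upward, stand above all 5 myeloid bars, which end at 727328.

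The difference was shared by both subunits. The large-subunit sum was 830611 ± 88395 normalised reads in leukaemia, against 348746 ± 42324 in myeloid libraries (SD, n = 5 each). The small-subunit sum was 631486 ± 67694 in leukaemia, against 273294 ± 33708 in myeloid libraries. The ratio of large- to small-subunit reads was 1.323, 1.333, 1.325, 1.282 and 1.314 in leukaemia libraries, against 1.298, 1.258, 1.263, 1.291 and 1.271 in myeloid libraries. The leukaemia ratios lay mostly higher, but leukaemia replicate 4 fell among the myeloid values. No test was made of these sums.

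Each gene was tested with limma on the deposited log2 values, and Rpl3l, too low to be tested, was left out. All 80 tested genes were higher in leukaemia at an adjusted p under 0.05 and none was lower. That threshold did not separate genes in this table, where 99.8% of the 8079 tested genes passed in either direction and 49.1% passed as higher in leukaemia. How genes were chosen for the table is not given, so shares and medians over all tested genes may not stand for all expressed genes. The size of the difference separates the genes more: 56 of 80 had a log2 difference of at least 1, against 9.52% of all tested genes. The deposited scale compresses differences of genes with fewer reads, so this cutoff asks a larger fold of them. Rps27l, with few reads, had a log2 difference of 0.80 at 2.26-fold, against 1.12 at 2.24-fold for Rpl11. The 2 shares are therefore not at 1 fold cutoff. The median log2 difference was 1.16, against -0.16 over all tested genes, and the median fold of normalised reads was 2.35. Without myeloid replicates 2 and 4 all 80 were again higher, with a median of 1.18. By subunit, the median was 1.13 for the 48 tested large-subunit genes and 1.19 for the 32 small-subunit genes, and 35 and 21 of them reached a log2 difference of 1.

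For 76 of the 80 genes all leukaemia libraries exceeded all myeloid ones, as was so for 42.4% of all tested genes. The exceptions were Rps9, Rpl17, Rps29 and Rpl21. Counting either direction, 86.8% of all tested genes had no overlap. The recovered reads were also fitted with limma's voom. With the recovered size factors the median of all genes was then -0.21 and that of ribosomal protein genes 1.23, and with reads scaled by library total (total scaling) they were 0.43 and 1.87. Under total scaling all 80 were again higher, against 57.2% of all genes, with 4621 genes of the table higher and 2232 lower. Relative to the median of all genes, ribosomal protein genes were higher by 1.32 in the deposited values and by 1.62 after quantile normalisation. In the voom fits this distance was 1.45 with the recovered size factors and 1.44 with total scaling.

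**Figure D2:**
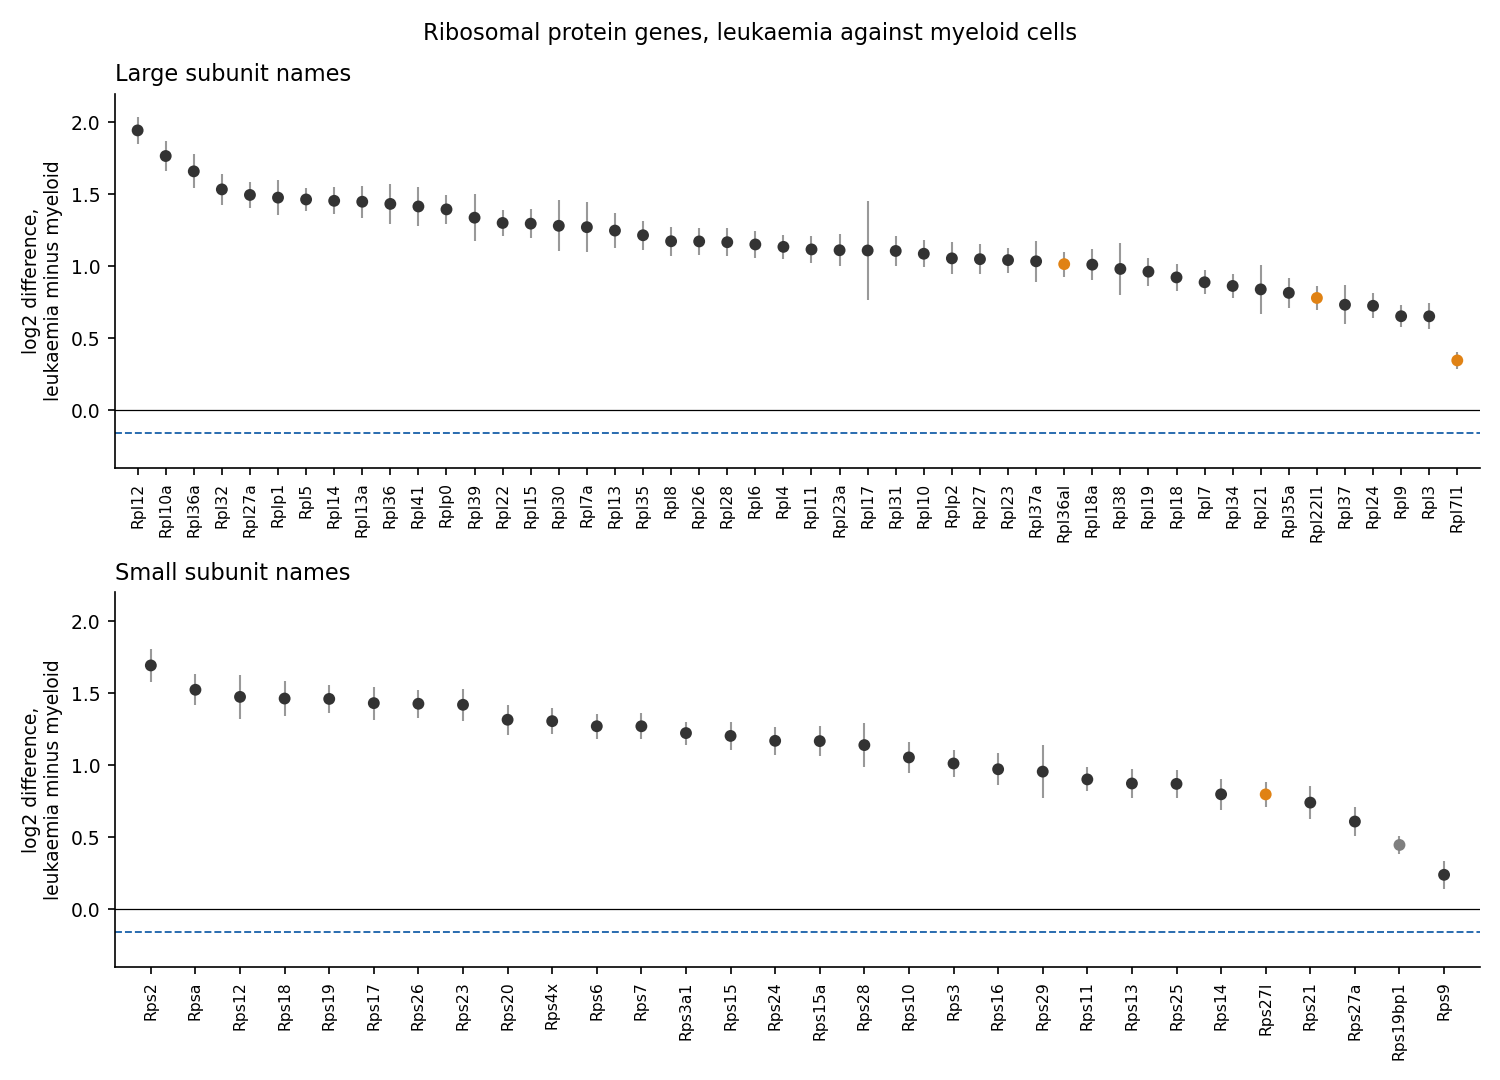
Log2 difference of deposited values, leukaemia minus myeloid, with its standard error, for 78 of the 80 tested genes by subunit. The 4 tested paralogues are orange, Rps19bp1 is grey and the dashed blue line is the median of all tested genes, -0.16. All points lie above 0, from 0.24 for Rps9 to 1.94 for Rpl12.

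Among large-subunit genes, the highest difference was that of Rpl12, which sits at the base of the stalk where translation factors dock. Rpl12 had 21921, 27851, 22553, 25174 and 24903 normalised reads in leukaemia, against 6329, 7095, 5718, 4935 and 5738 in myeloid libraries. The groups were far apart, with every leukaemia library over 3 times any myeloid one. The means were 24480 ± 2361 and 5963 ± 804, a 4.11-fold difference (log2 difference 1.94, SE 0.0947, limma adjusted p = 5.82e-10). Rpl10a, the protein of the mobile stalk beside the site where tRNAs leave, followed at 3.59-fold and a log2 difference of 1.77. Rpl36a, X-linked and close to the same exit site, had 5430, 8265, 7171, 6925 and 6569 normalised reads in leukaemia, against 1701, 2530, 1537, 1752 and 1575 in myeloid libraries. Its fold was 3.78, with myeloid replicate 2 above the other myeloid libraries but far below leukaemia. Next in order of log2 difference, Rpl32 was 3.07-fold higher, Rpl27a 2.98-fold and Rplp1 2.92-fold. Ordered by fold instead, some large-subunit genes with fewer reads stood above these. Rplp1 is one of the acidic proteins at the tip of the stalk that bind elongation factors.

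Among small-subunit genes, Rps2 differed most. Its protein lines the channel through which mRNA enters. Rps2 had 29373, 41916, 33655, 37757 and 37762 normalised reads in leukaemia, against 10416, 13817, 9227, 10199 and 10290 in myeloid libraries. Every leukaemia library exceeded every myeloid one by a wide margin, although myeloid replicate 2 was above its group. The fold was 3.35 (log2 difference 1.69, SE 0.115, limma adjusted p = 1.33e-08). Rpsa, the small-subunit protein also known as the laminin receptor, was 2.92-fold higher. Rps12 was 3.07-fold and Rps18, a protein of the subunit head, 2.92-fold higher. Rps19, the gene most often mutated in human Diamond-Blackfan anaemia, had 12772 ± 1885 normalised reads in leukaemia, against 4258 ± 380 in myeloid libraries, a 3.0-fold difference.

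Rps9 had the lowest difference of the 80. Its protein, like Rps2, lies at the mRNA entrance. Rps9 had 26701, 35299, 29435, 33926 and 31907 normalised reads in leukaemia, against 27602, 30885, 24361, 24536 and 25418 in myeloid libraries. The groups overlapped, with leukaemia replicate 1 below myeloid replicates 1 and 2 and leukaemia replicate 3 below myeloid replicate 2. The fold was 1.18 (log2 difference 0.24, SE 0.0957, limma adjusted p = 0.0285). The call was lost on leaving out leukaemia replicate 2, 4 or 5 or myeloid replicate 3, 4 or 5, with limma adjusted p between 0.0559 and 0.0754.

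Other core genes at the low end were higher in leukaemia without overlap. In the small subunit, Rps27a, made as a fusion with ubiquitin, was 1.55-fold higher, Rps14 1.78-fold, Rps25 1.88-fold and Rps21 1.91-fold. Loss of a copy of RPS14 underlies the anaemia of human 5q deletion syndrome. In the large subunit, Rpl3, which reaches towards the peptidyl transferase centre, had 18292, 22766, 19387, 20368 and 20025 normalised reads in leukaemia, against 14046, 14691, 11697, 11407 and 11509 in myeloid libraries. The Rpl3 groups stood apart by a small gap, and the fold was 1.59. Rpl9 was 1.61-fold, Rpl24, part of a bridge between the subunits, 1.72-fold and Rpl37 1.78-fold higher. Rps19bp1 was 1.97-fold higher, at only 415 ± 45.2 normalised reads in leukaemia, against 210 ± 43.5 in myeloid libraries, and its log2 difference of 0.45 is compressed at this level by the variance-stabilised scale.

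The relative levels of some genes within the set differed between the groups. Each gene was set against the median ribosomal protein gene of its own library, which removes any scaling between libraries. On this log2 scale Rps9 lay 0.94 ± 0.035 above the median in leukaemia and 2.06 ± 0.060 above it in myeloid libraries (SD, n = 5 each), a difference of -1.11. Rps27a lay at -0.18 ± 0.074 in leukaemia and 0.54 ± 0.068 in myeloid libraries, Rpl3 at 0.31 ± 0.074 and 0.99 ± 0.032, and Rpl9 at -0.37 ± 0.107 and 0.30 ± 0.052. Relative levels of these 4 genes were lower in every leukaemia library than in any myeloid one. Rpl12 ran the other way, at 0.58 ± 0.068 in leukaemia and -0.10 ± 0.092 in myeloid libraries, and so did Rpl36a at -1.26 ± 0.091 and -1.83 ± 0.169. Groups were free of overlap after this centring for 37 of 80 members, and no test was made. The 75.3% of all tested genes is no baseline for that count. Centring removes the difference that the members share and shifts all other genes by it.

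**Figure D3:**
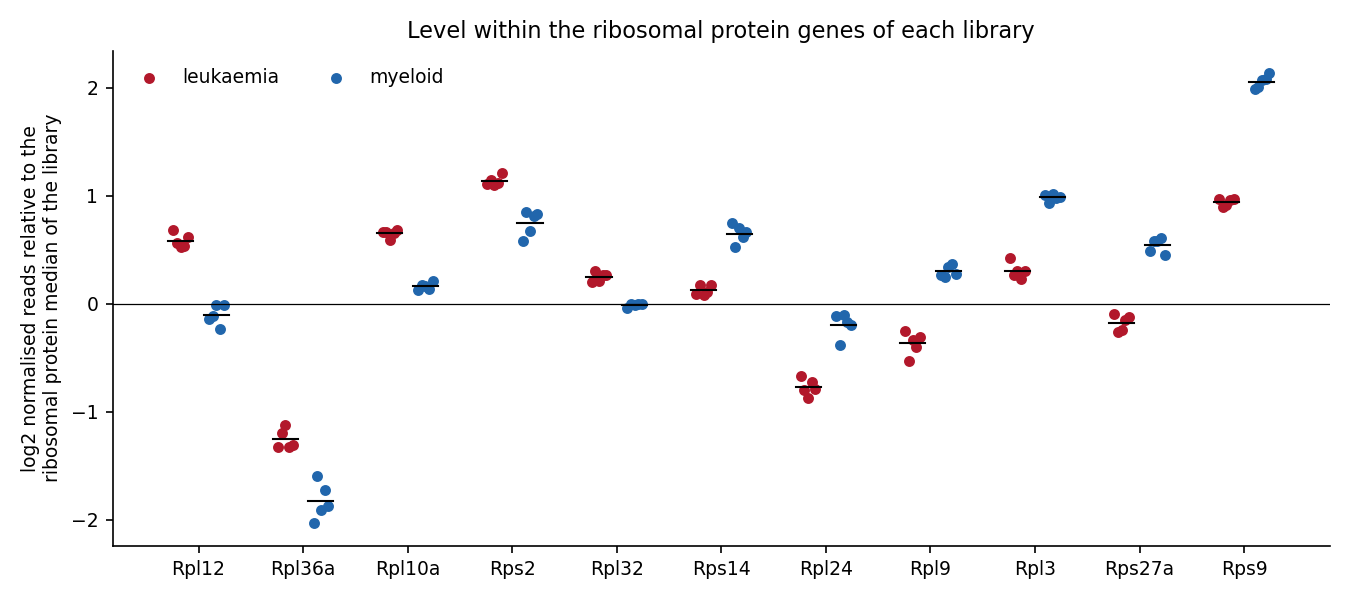
Log2 normalised reads of 11 ribosomal protein genes relative to the median ribosomal protein gene of the same library, one point per library, leukaemia red and left, myeloid blue and right, with black lines at group means. Rpl12 and Rpl36a sit higher in leukaemia, and Rps9 sits at 0.94 in leukaemia and 2.06 in myeloid libraries.

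Per kilobase of coding sequence, Rpl41 had the most reads of the large-subunit genes, with 196041 normalised reads in leukaemia, against 69014 in myeloid libraries. Its peptide is the shortest of the ribosome, so untranslated bases weigh heavily in that figure. Rplp0, the scaffold of the stalk, had 78074 per kilobase in leukaemia and 29327 in myeloid libraries, and Rpl13a had 64269 and 22921. In the small subunit Rpsa led in leukaemia with 71512 per kilobase, against 24490 in myeloid libraries, and Rps24 had 66687 and 28880. Rps9, with 54044 in leukaemia and 45637 in myeloid libraries, led the small subunit in myeloid cells. The folds of the abundant genes were 2.84 for Rpl41, 2.66 for Rplp0, 2.80 for Rpl13a and 2.31 for Rps24.

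Of the paralogues with names ending in l, l1 or al, 5 were in the table, and 4 of them have their parent there too. Rps27l, a target of p53 whose parent is not analysed here, had 1172, 1749, 1493, 1527 and 1416 normalised reads in leukaemia, against 570.2, 871.1, 553.2, 629.5 and 627.7 in myeloid libraries. Every leukaemia library was higher, and the fold was 2.26. The other 4 were set against their parents within each library, by exact permutation of the libraries, two-sided, for which 0.00794 is the smallest p, adjusted over the 4 pairs. No word of 50 coding bases of any of these paralogues occurs in its parent, so coding reads of at least that length differ between the copies.

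Rpl7l1 had 2839, 3333, 3264, 3516 and 3364 normalised reads in leukaemia, against 2488, 2639, 2348, 2379 and 2405 in myeloid libraries. The groups did not overlap, but the fold of 1.33 was below the 1.88 of Rpl7. Rpl7l1 therefore stood at 11.4% ± 0.600 of Rpl7 in leukaemia and 16.1% ± 1.03 in myeloid libraries (SD, n = 5 each), a log2 difference of the ratio of -0.50 (exact permutation p = 0.00794, adjusted 0.0106). The share was lower in all 5 leukaemia libraries than in any myeloid library.

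Rpl36al, an autosomal copy of the X-linked Rpl36a, had 4254, 5220, 4568, 4113 and 4380 normalised reads in leukaemia, against 2253, 2087, 2146, 1537 and 1832 in myeloid libraries. It was 2.29-fold higher in leukaemia, less than its parent. As a share of Rpl36a it was 78.4%, 63.2%, 63.7%, 59.4% and 66.7% in leukaemia, against 132%, 82.5%, 140%, 87.7% and 116% in myeloid libraries. The parent was the more abundant copy in every leukaemia library, and the copy was ahead in 3 of 5 myeloid libraries. The shares did not overlap, with a log2 difference of -0.73 (exact permutation p = 0.00794, adjusted 0.0106). Without myeloid replicates 2 and 4, whose shares were the lowest of their group, the log2 difference was -0.97. All 50-base words of Rpl36al and of Rpl36a occur in some other annotated gene, so both counts depend on how shared reads were treated. This limit also touches the other pairs, as Rpl3, Rpl22l1 and Rpl7 share 95.7%, 84.2% and 77.5% of their words.

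Rpl22l1, which rises in mice that lack Rpl22, had 880.7, 983.2, 895.2, 1193 and 986.2 normalised reads in leukaemia, against 377.8, 542.5, 392.0, 410.0 and 275.8 in myeloid libraries. Both it and Rpl22 were higher in leukaemia, 2.47-fold and 2.76-fold. Its share of Rpl22 was 14.0% ± 1.42 in leukaemia and 15.7% ± 3.67 in myeloid libraries (SD, n = 5 each). These shares overlapped, and the log2 difference of -0.15 did not pass (exact permutation p = 0.405). The myeloid shares spread widely, from 10.9% to 19.4%, and without myeloid replicates 2 and 4 the log2 difference was 0.05 (exact permutation p = 0.821).

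Rpl3l, which replaces Rpl3 in heart and skeletal muscle, was the one gene of the set with fewer reads in leukaemia. It had 0, 5.91, 7.91, 1.70 and 6.49 normalised reads in leukaemia, against 18.7, 37.8, 23.2, 25.2 and 21.7 in myeloid libraries. All leukaemia libraries were lower, at levels of few reads in both groups. Its share of Rpl3 was 0.0215% ± 0.0169 in leukaemia and 0.20% ± 0.0458 in myeloid libraries, a log2 difference of -3.30 with 1 normalised read added to each (exact permutation p = 0.00794, adjusted 0.0106). At these low levels the size depends on that choice: it was -1.98 with 10 normalised reads added and -0.92 as a difference of deposited values. Without the filter on low values, limma gave a log2 difference of -0.27 (adjusted p = 0.000471).

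**Figure D4:**
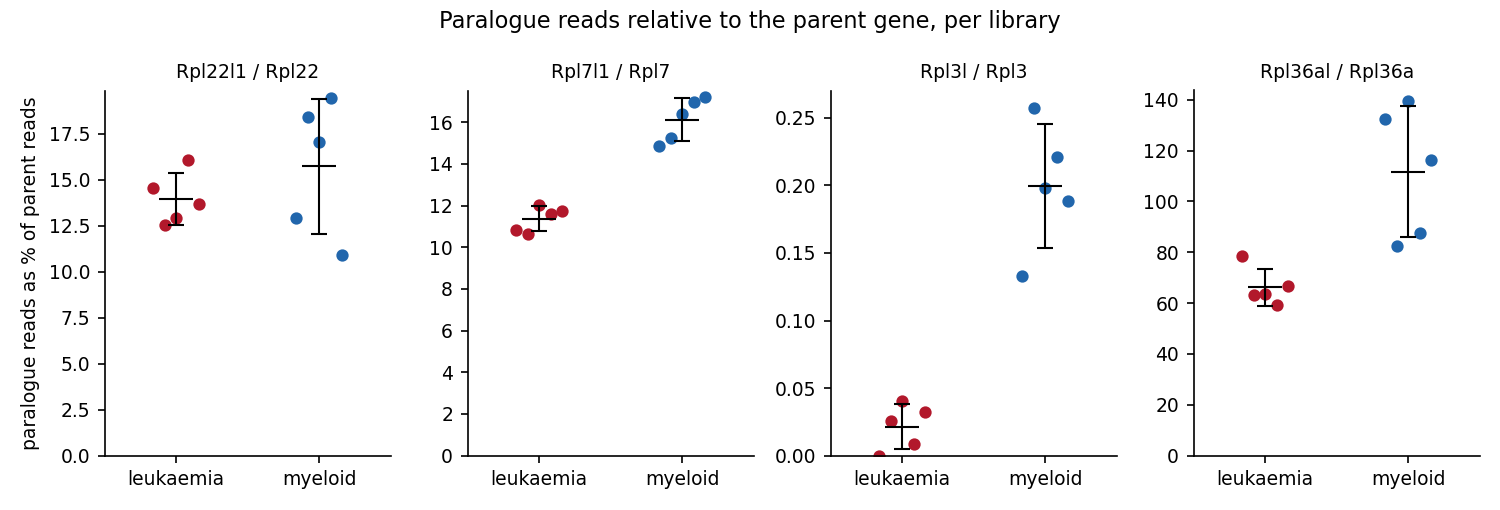
Normalised reads of a paralogue as percent of its parent in each library (points; leukaemia red and left, myeloid blue and right), with mean and SD in black. Shares of Rpl7l1, Rpl3l and Rpl36al are lower in all leukaemia libraries, and those of Rpl22l1 overlap.

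Ribosomal protein genes have many processed pseudogenes, and the counting rule for shared reads is not given. Of the 81 genes, 67 share at least 50% of their 50-base coding words with another annotated gene and 29 share all of them. The 14 with less sharing gave a smaller summed ratio. They summed to 247306 ± 24420 normalised reads in leukaemia, against 122154 ± 12384 in myeloid libraries, and all 13 that were tested were higher, with a median log2 difference of 1.01. Their ratio was 2.03 with Rps9 and 2.26 without it, against 2.35 for all members. Rps3, a protein of the mRNA entrance with 8.1% shared, was 2.06-fold higher, and Rpl8, near the peptidyl transferase centre with 8.7% shared, was 2.31-fold higher. Across the 80 genes, the Spearman correlation of the shared percentage with the log2 difference was 0.11, as a description over genes of the same libraries. Of 4 pseudogene entries in the table, Rps12-ps3 was 2.56-fold and Rpl9-ps6 1.60-fold higher in leukaemia without overlap, Rpl10-ps3 was 3.57-fold higher with overlap, and Rpl36a-ps1 was too low to be tested.

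Genes with short coding sequences varied more between libraries. The median coefficient of variation was 18.9% in leukaemia and 20.8% in myeloid libraries for the 9 genes under 300 coding bases, against 10.8% and 12.4% for the 23 genes of 600 or more. Across the 80 genes the Spearman correlation of coding length with this spread was -0.51 in leukaemia and -0.57 in myeloid libraries, while with the log2 difference it was 0.10. Rpl17, of mid length, was the most variable gene, with 4600, 11910, 7066, 3239 and 7744 normalised reads in leukaemia, against 2987, 5012, 3682, 1200 and 1746 in myeloid libraries. Its groups overlapped and its fold of 2.36 had a limma adjusted p of 0.00722. Rps29, a small zinc-binding protein of the subunit head, overlapped through leukaemia replicate 1, with 1969 normalised reads against 1980 and 2135 in myeloid replicates 1 and 2.

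**Figure D5:**
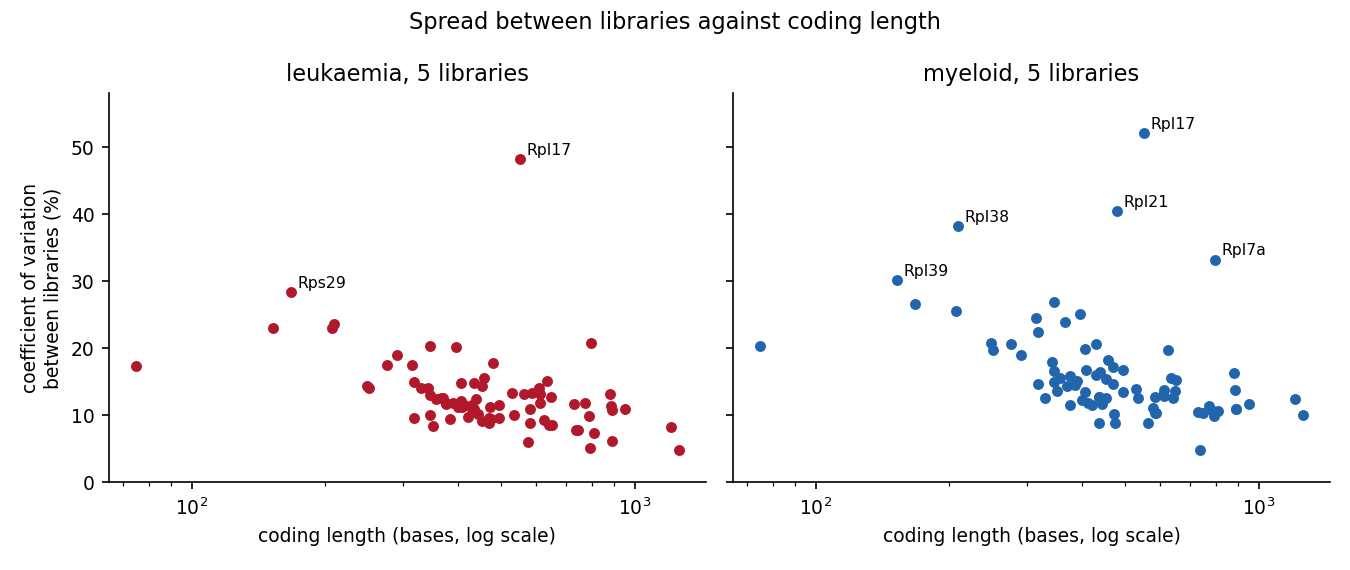
Coefficient of variation between the 5 libraries of a group in percent against coding length in bases (log axis), one point per tested gene, leukaemia left and myeloid right. The spread falls with length in both groups, and Rpl17 is highest in both, at 48.3% in leukaemia and 52.1% in myeloid libraries.

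Rack1, a ribosomal protein outside the name rule and a signalling scaffold on the small-subunit head, was also higher in leukaemia. Rack1 had 39405 ± 4548 normalised reads in leukaemia, against 14488 ± 1925 in myeloid libraries (SD, n = 5 each), a 2.72-fold difference. Of other mRNAs known for a terminal oligopyrimidine tract, 17 of 17 were higher, against 49.1% of all tested genes, with a median log2 difference of 1.0. Npm1, a nucleolar ribosome assembly protein, was 3.93-fold and the elongation factor subunit Eef1g 3.63-fold higher.

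Chaperones and carriers of ribosomal proteins were higher for 24 of 25 tested genes, against 49.1% of all tested genes, with a median log2 difference of 0.76. Their median fold of normalised reads was 1.995, as the deposited scale compresses differences of genes with fewer reads. Tsr1, a small-subunit assembly factor, was 5.75-fold and Rrs1, which brings Rpl5 and Rpl11 into the large subunit, 5.71-fold higher. Riok1, a late small-subunit assembly kinase, was 1.16-fold lower (log2 difference -0.16, limma adjusted p = 0.0113), but was higher by 0.44 with total scaling. The list of regulators of translation of these mRNAs mixed activators with inhibitors and took in Rps6k kinases by name. Its counts therefore do not give 1 direction of regulation. In it, 4 of 16 tested genes were higher and 12 lower, against 50.7% of all tested genes lower. The median log2 difference was -0.57. With total scaling, 5 of the 16 were higher and 8 lower, against 4621 and 2232 of all 8079 tested genes.

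Larp1, which binds the oligopyrimidine tract and cap, had 7044 ± 573 normalised reads in leukaemia, against 3921 ± 173 in myeloid libraries, a 1.80-fold difference. Rptor, the mTOR partner that recruits substrates, was 2.10-fold higher. Lower in leukaemia were the mTOR subunit Mlst8 by 3.44-fold, the leucine sensor Sesn2 by 6.58-fold, the ribosomal protein S6 kinase Rps6kb2 by 2.03-fold and the mTOR target Eif4ebp1 by 2.11-fold. These 4 genes were also lower with total scaling. Mtor and Rps6kb1 were not analysed here.

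Surplus ribosomal proteins, Rpl5 and Rpl11 above all, can stabilise p53 by binding Mdm2. Rpl5 was 2.84-fold and Rpl11 2.24-fold higher in leukaemia, against a median fold of 2.35 over the tested ribosomal protein genes. Mdm2 was 2.60-fold lower. A link between these values was not tested. Of p53 and its targets, Rps27l included, 4 of 11 tested genes were higher and 7 lower, against 49.1% and 50.7% of all tested genes, with a median log2 difference of -0.73. With total scaling, 4 of the 11 were higher and 5 lower, against 4621 and 2232 of all 8079 tested genes. Trp53 itself was 3.11-fold and the nuclease gene Aen 3.79-fold higher, while Trp53inp1 was 11.9-fold and Btg2 9.26-fold lower. Among genes for rescue and quality control of stalled ribosomes, 9 of 16 were higher and 7 lower, close to the 49.1% and 50.7% of all tested genes. Under total scaling 9 of these 16 were higher and 4 lower, again beside 4621 and 2232 of all 8079 tested genes. Abce1, which splits ribosomes for recycling, was 3.23-fold and the stress granule protein G3bp1 2.95-fold higher. The ubiquitin ligase Rnf25 was 3.11-fold and the GTPase Gtpbp2 2.73-fold lower.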

How the data were processed

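The authors deposited one table of 10141 genes by 10 libraries that holds normalised, variance-stabilised read counts on a log2 scale, as its values and name show. HISAT2 (versions 2.0.4 and 2.2.1) and DESeq2 are named in the submitters' processing notes, and the labels give a NEBNext Ultra kit. The genome build, annotation, read counter, strand setting and the choice of genes for the table are not given in the sources used here. Other genes were not analysed here, and read totals cover the table only, not the depth of a library.

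The shared lowest value, 8.1823, was taken as 0 reads and the stabilising function was inverted. In each library 100.0% of values of at most 300 reads came out whole within 0.1 read, which gave reads and size factors. Normalised reads are reads divided by the size factor, and folds are ratios of their means.

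Differences were tested with limma 3.58.1 (R 4.3.3) on the deposited log2 values (leukaemia minus myeloid; trended variance prior; two-sided), with Benjamini-Hochberg adjustment over 8079 genes whose mean lay more than 1 unit above the lowest value (about 145 normalised reads). On this scale the log2 difference of a gene with few reads is compressed. Paralogue ratios were compared by exact permutation with 1 normalised read added to both terms. Coding lengths, shared words of 50 bases and chromosomes came from GENCODE, in which all 81 names were found, and promoters from RefSeq (GRCm38.p6), which is not known to be the authors' build. A word counts as shared where it also occurs in a transcript of another annotated gene.

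Genes named were each paralogue and its parent, the 6 highest and 6 lowest non-overlapping differences and the 3 highest levels per length of each subunit, genes that were not tested or did not pass, fixed companions, and the 2 highest and 2 lowest of each companion list. Rps3, Rps6, Rps29, Rpl4, Rpl5, Rpl8, Rpl11, Rpl17, Rpl21 and Mdm2 were named after their values were seen. A few genes that enter the counts and sums are not reported here by name. The members, lists and tests were chosen with earlier results of these data known, and no test was made on a list. Same-numbered leukaemia and myeloid libraries were not treated as pairs.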

Additional observations from a re-analysis of the deposited data

Results flagged for a closer look

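Single libraries lay far from the other 4 of their group in 7 of the 118 groups of values screened, and chance alone flags about 1 in 20. In myeloid replicate 2, Rpl36a had 2530 normalised reads against 1537 to 1752 in the other myeloid libraries, Rps2 had 13817 against 9227 to 10416, and Rps27l had 871.1 against 553.2 to 629.5. The same library had 1916 normalised reads of Rnf25 against 1631 to 1712, and the highest ribosomal protein sum of its group. In leukaemia, replicate 4 had 1435 normalised reads of Riok1 against 1529 to 1537, replicate 3 had 513.4 of Sesn2 against 273.4 to 339.5, and replicate 1 had 1581 of Trp53inp1 against 1011 to 1131. The cause was not tested.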

How the results depend on the processing

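Between 79 and 80 ribosomal protein genes were higher on leaving out each library in turn, and 0 were lower. Without the filter 1, Rpl3l, was lower, and of members with under 50% of words shared (a setting chosen after seeing the data) 13 were higher. The median log2 difference was 1.09 to 1.19 for the large and 1.14 to 1.25 for the small subunit on leaving out a library, 1.70 and 1.78 with quantile normalisation, 1.85 and 1.89 with the total of the table, 1.34 and 1.38 with trimmed means, and 0.85 for small-subunit genes with little sharing. The ratio of sums was 2.27 to 2.45 without single libraries, 3.66 as a share of the table, 2.03 for genes with little sharing and 2.26 for those without Rps9. Lower chaperones numbered 0 under quantile, total and trimmed-mean scaling, and lower rescue genes 4 under total scaling. Riok1 reversed to 0.44 with the total of the table. The Rpl22l1 ratio was -0.52 (exact permutation p = 0.00794) as a difference of deposited values, which compress low genes. Deviations of same-numbered libraries correlated at -0.02 to 0.32, which was not above 0.1 for every number, so the numbers were not taken as pairs; 2 of 5 matched best with their own. With a replicate block, the differences for Rpl7l1 (-0.50), Rpl3l (-3.30) and Rpl36al (-0.73) are by construction those without it, and their exact sign-flip adjusted p of 0.0833 did not pass, since 5 pairs cannot go below an unadjusted 0.0625. The replicate block left all 80 genes higher. Of the other values, 996 for single genes and 358 for counts, medians and ratios kept their call and direction, and the Rpl22l1 ratio, which did not pass, turned to 0.05 without myeloid replicates 2 and 4. Since 99.8% of tested genes passed, adjusted p-values are not read as error rates over all genes.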

Other observations

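Ribosomal protein genes were also grouped by place in the ribosome or by disease, with groups chosen after the values were seen. All tested members of each were higher in leukaemia. The median log2 difference was 1.44 for the 4 stalk genes Rplp0, Rplp1, Rplp2 and Rpl12 and 1.29 for Rpl5 and Rpl11. It was 1.11 for 7 genes at the rim of the peptide exit tunnel, 1.17 for 14 genes of the small-subunit head and 1.17 for 13 genes mutated in human Diamond-Blackfan anaemia. The 4 X-linked genes, Rpl10, Rpl36a, Rpl39 and Rps4x, had a median of 1.32. The median over all 80 genes was 1.16, and no test was made between the groups.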
